A study of Mus musculus with 24 samples.

Results

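F-box proteins are the parts of a ubiquitin ligase that choose what it marks for breakdown. The classical ligase, SCF, is built from Skp1, the cullin Cul1, a RING protein and 1 F-box protein: the F-box holds Skp1, and the rest of the protein binds the substrate. Fbxl proteins bind substrates through leucine-rich repeats, Fbxw proteins through WD40 repeats, and Fbxo proteins through other domains. Fbxo32 (atrogin-1) is the F-box protein best known in wasting muscle. The genes described here are the other numbered F-box genes, chosen by symbol alone: every gene of the count tables named Fbxl, Fbxo or Fbxw plus a number, leaving out Fbxo32, Fbxo30, Fbxo31, Fbxo21 and Fbxo40, which are known from muscle atrophy. The rule found 49 of 14537 genes, of which 17 are Fbxl, 23 Fbxo and 9 Fbxw genes.

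Male C57BL/6J mice gave RNA of skeletal muscle and of heart, sequenced in 3 groups of 4 libraries per tissue. KPC+GnP mice carried orthotopic implants of the pancreatic cancer cell line KPC32908 and received gemcitabine, a nucleoside analogue, plus nab paclitaxel, which stabilises microtubules and is carried on albumin. KPC mice carried the same implants and received vehicle, and control mice had sham surgery and are labelled as untreated, so KPC against control spans implant and vehicle together. The 24 libraries came from 16 animals, 8 of which gave both tissues. All tumours came from 1 cell line, and the muscle sampled, the age of the mice and the time after implantation are not stated in the labels. The 8 skeletal muscle fibre markers summed to between 117092 and 194954 CPM in the muscle libraries, and the 8 cardiomyocyte markers to between 35100 and 78746 CPM in the heart libraries. CPM are counts brought to one fixed library size, after scaling between the libraries of a tissue by trimmed mean of M values (TMM). Nppa, a cardiomyocyte hormone, had 0 counts in every muscle library.

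Total counts were 18285396 to 27382432 per muscle library and 11020931 to 20969551 per heart library. Of the 49 genes, 46 passed the filter on low counts in muscle (Fbxl21, Fbxo16 and Fbxw10 did not) and 48 in heart (Fbxw10 did not). KPC 1 stood apart in muscle. Fbxo32 had 1388, 7579.8, 6861 and 6586 CPM in the KPC muscle libraries 1 to 4, against 874, 609, 513 and 412 CPM in the controls. Of the 20 F-box genes that differed between KPC and control muscle, 15 had KPC 1 as the KPC library nearest to the control mean. The heart of the same animal is KPC heart 4.

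In bulk tissue, fewer cells of a type and less RNA per cell cannot be told apart, and several lists of cell type markers moved with the muscle results. All 10 fibroblast markers were lower in KPC than in control muscle and higher in KPC+GnP than in KPC muscle (edgeR adjusted p under 0.05 for each). Their summed level was 687 to 1261 CPM in KPC+GnP, 234 to 405 CPM in KPC and 875 to 2363 CPM in control muscle. Of 5 smooth muscle and pericyte markers, 4 were lower in KPC than in control muscle and 4 higher in KPC+GnP than in KPC, with sums of 206 to 237 CPM in KPC+GnP, 102 to 157 CPM in KPC and 158 to 239 CPM in control muscle. Of 8 macrophage markers, 3 were lower in KPC than in control and 6 higher in KPC+GnP than in KPC, with sums of 44.9 to 164 CPM in KPC+GnP, 38.5 to 53.3 CPM in KPC and 53.8 to 97.3 CPM in control muscle. Of 6 endothelial markers, 3 were lower in KPC than in control and 3 higher in KPC+GnP than in KPC, with sums of 191 to 281 CPM in KPC+GnP, 157 to 259 CPM in KPC and 196 to 263 CPM in control muscle. No marker of these 3 lists was called in the other direction. Of all 12760 genes, 27.5% were called higher and 22.1% lower in KPC against control muscle. In KPC+GnP against KPC these shares were 23.1% and 26.7%. Other lists went the other way in KPC against control muscle, where 2 of 2 erythroid, 1 of 4 neutrophil and 1 of 4 adipocyte markers were higher and 0 lower. The part of these cells in the F-box results was not tested.

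Per length, most F-box genes were expressed at a low or middle level. In control muscle the median over the 49 genes was 4.09 FPKM (fragments scaled to transcript length and library depth, from the deposited log2 values), 16 genes reached 10 FPKM and 10 lay under 1 FPKM. In control heart the median was 3.98 FPKM, with 11 genes at 10 FPKM or more and 10 under 1. Fbxw5, a regulator of centriole number, and Fbxo3 led in control muscle with 37.2 ± 2.11 and 36.5 ± 2.45 FPKM (mean ± SD, n = 4), and these means did not differ beyond their spread. Fbxo9 and Fbxw11 were also high, with 23.97 ± 2.499 and 21.1 ± 0.853 FPKM. In control heart Fbxw5 had 24.1 ± 2.65 FPKM, Fbxo18 19.4 ± 1.20, Fbxo3 18.6 ± 1.30, Fbxo22 15.8 ± 0.727 and Fbxw7 15.7 ± 1.79 FPKM. Fbxo16 had 0 counts in the control muscle libraries, where the deposited table lists it at its floor of 0.0849 FPKM.

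**Figure D1:**
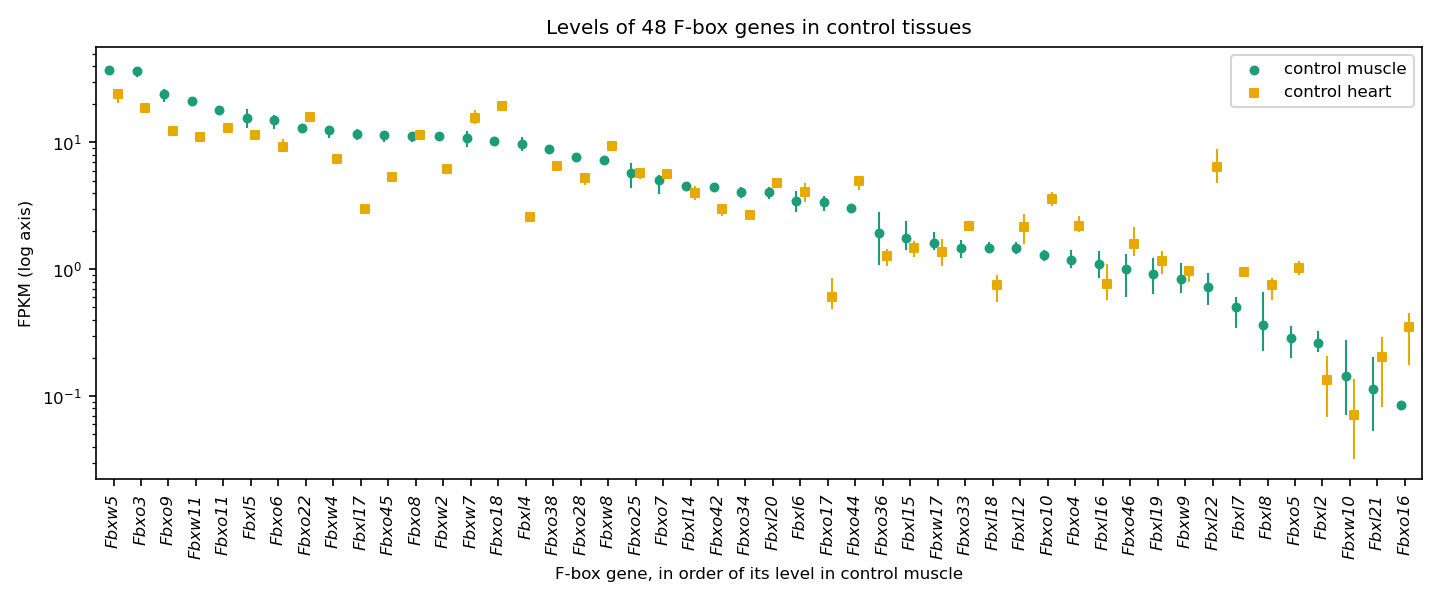
Mean FPKM of 48 of the 49 F-box genes on a log axis in control muscle (circles) and control heart (squares), with lines from the lowest to the highest of 4 libraries. Fbxw5 and Fbxo3 are highest in muscle, and Fbxl22 is higher in heart. The tables of the 2 tissues were normalised separately.

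KPC muscle was first set against control muscle, which compares implant and vehicle together with untreated sham surgery. Fbxl22, Fbxl7 and Fbxw7 fell the most, by 2.51, 1.04 and 1.01 on the log2 scale, and Fbxo6, Fbxo7, Fbxl4 and Fbxw8 rose the most, by 0.77 to 0.93. In all, 20 of the 46 genes tested passed an edgeR adjusted p of 0.05, which is 43.5% of them, against 49.7% of all 12760 genes tested. F-box genes as a group were thus called at a share near that of all genes. Of the 20, 13 rose and 7 fell, where 27.5% of all genes rose and 22.1% fell. The 4 KPC libraries all lay above the 4 control libraries for 10 of the 46 genes and below them for 4, together 14 genes, against 19.8%, 17.4% and 37.2% of all genes. By class, 4 of 16 Fbxl, 11 of 22 Fbxo and 5 of 8 Fbxw genes were called. The median log2 fold change of the 46 genes was 0.066, and that of all genes was -0.0026.

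The split into higher and lower depended on the scaling of the libraries. With library totals alone in place of TMM, 5 of the F-box genes were called higher and 13 lower, and the median of all genes moved to -0.17. Of all 12760 genes, 2308 were then called higher and 4064 lower. All 20 F-box genes called with TMM kept their sign under both scalings. Without KPC 1 in the fit, 27 F-box genes were called, 16 higher and 11 lower, beside 4069 higher and 3924 lower of all 12917 genes.

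Chemotherapy was addressed by comparing KPC+GnP with KPC muscle. Fbxo6, Fbxl4, Fbxw8 and Fbxo7 were lower in KPC+GnP, by 0.75 to 1.10 on the log2 scale, and Fbxl22, Fbxw7 and Fbxl7 were higher, by 0.77 to 2.22. Here 22 of 46 genes were called, 47.8%, against 49.8% of all genes, with 8 higher and 14 lower (23.1% and 26.7% of all genes). Library totals alone gave 15 higher and 6 lower, beside 4898 and 1780 of all 12760 genes. Fitting only these 2 groups gave 14 calls, beside 2197 higher and 2837 lower of all 12534 genes. Without KPC 1 there were 25, beside 3998 higher and 4058 lower of all 12917 genes. Without KPC+GnP 3 there were 13, beside 2306 higher and 2897 lower of 12900. Without KPC 4 there were 14, beside 2272 higher and 2897 lower of 12910. This comparison and the previous one share the 4 KPC libraries, so opposite signs in them are not independent, and values of the 3 groups are therefore given side by side. Between KPC+GnP and control muscle, edgeR called 0 of 46 F-box genes and 0 of all genes (0% of 12760). The unadjusted p was under 0.05 for 1 F-box gene, Fbxw5, at -0.20 (SE 0.088), and for 413 of all 12760 genes. DESeq2 called 0 of the 46 and 0 of all genes. Fbxl15 averaged 1.29 ± 0.197 CPM in KPC+GnP and 1.72 ± 0.451 CPM in control muscle, at -0.42 (SE 0.25, edgeR adjusted p = 1.000). This does not show that the groups were alike.

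**Figure D2:**
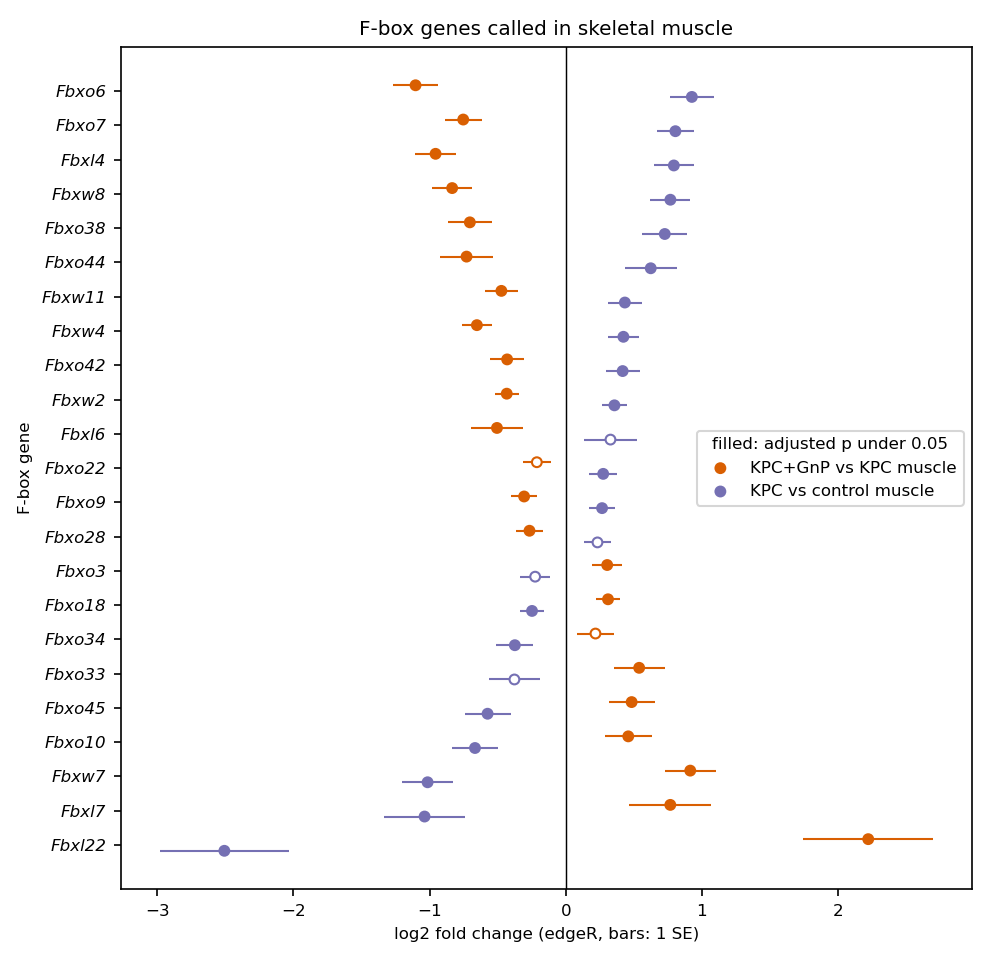
Log2 fold changes from edgeR with 1 SE for 23 of the 24 F-box genes called in KPC vs control muscle (purple) or KPC+GnP vs KPC muscle (orange), filled where adjusted p is under 0.05. Fbxl22 lies farthest from 0 in both comparisons, which share the 4 KPC libraries.

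Fbxl22 (chr9:66508459-66514593, minus strand, GRCm38) encodes a protein of the sarcomere Z-disc that directs the breakdown of alpha-actinin and filamin C. It had 0.613, 1.67, 2.09 and 2.47 CPM in KPC+GnP, 0.614, 0.117, 0.450 and 0.289 CPM in KPC and 1.47, 1.89, 2.30 and 2.67 CPM in control muscle. All KPC libraries lay below all controls, whereas KPC+GnP 1 fell just below KPC 1, so those groups overlapped. In KPC muscle Fbxl22 was 5.68-fold lower than in controls (log2 fold change -2.51 with SE 0.48, edgeR adjusted p = 0.00140), and in KPC+GnP it was 4.66-fold higher than in KPC muscle (log2 fold change 2.22 with SE 0.48, edgeR adjusted p = 0.00275). In KPC muscle these levels rest on 3 to 14 counts per library. In annotation GENCODE vM21, 317 bases of its exons overlap those of Herc1 on the other strand, and whether the counting used strand is not known.

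Heart holds far more Fbxl22. The gene had 25.5, 23.8, 25.4 and 30.4 CPM in KPC+GnP, 19.9, 3.75, 9.04 and 14.96 CPM in KPC and 29.5, 24.03, 44.8 and 32.1 CPM in control heart. Every KPC heart lay below every control heart and every KPC+GnP heart, with KPC 2 the lowest. The fall in KPC against control heart was called (log2 fold change -1.45 with SE 0.38, edgeR adjusted p = 0.0396). The call was lost without any 1 of 8 of the 12 libraries, where the adjusted p lay between 0.0508 and 0.108 and the log2 fold change between -1.57 and -1.26, and it was lost when only these 2 groups were fitted, at -1.42 (adjusted p = 0.0945).

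Fbxo10, an F-box protein that targets the survival factor Bcl2, was the other gene called in heart. It had 17.5, 18.8, 15.4 and 21.3 CPM in KPC+GnP, 13.8, 7.76, 13.95 and 16.03 CPM in KPC and 19.5, 22.2, 18.8 and 24.3 CPM in control heart. KPC hearts lay below control hearts in every case (log2 fold change -0.72 with SE 0.20, edgeR adjusted p = 0.0429). Leaving out any 1 of 10 of the 12 libraries ended this call, at adjusted p between 0.0547 and 0.121. In muscle Fbxo10 had 3.47, 3.42, 3.95 and 4.72 CPM in KPC+GnP, 2.37, 2.57, 3.40 and 2.97 CPM in KPC and 4.63, 4.85, 4.52 and 3.99 CPM in control libraries. The KPC group lay below both others without overlap. Its fall in KPC against control muscle was -0.67 (SE 0.17, edgeR adjusted p = 0.00690). The rise in KPC+GnP against KPC muscle, 0.46 (SE 0.17, edgeR adjusted p = 0.0404), was lost without any 1 of 9 of the 12 libraries, at adjusted p between 0.0523 and 0.128.

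The promoters of Fbxl22 and Fbxo10 are shown because these were the genes called lower in KPC in both tissues, beside that of Fbxo7, which rose in muscle. The Fbxo7 promoter was chosen after the search because it holds the motif marked, whereas its other listed start and those of Fbxo6 and Fbxl4, which rose as well, do not. Sequences come from RefSeq on GRCm38.p6 and run from 250 bases before to 50 after the annotated start, on the strand of the gene, for Fbxl22 at chr9:66514544-66514843 (minus strand), for the first of 2 listed starts of Fbxo10 at chr4:45084555-45084854 (minus strand) and for the second of 2 of Fbxo7 at chr10:86021904-86022203 (plus strand). In GENCODE vM21 the Fbxo7 gene begins at chr10:86021972, which lies inside the window shown. Most of the Fbxo7 sequence, with the motif marked in it, is therefore within the annotated gene and not upstream of it. Capitals mark CACGTG, the E-box, which binds factors of the basic helix-loop-helix type.
Fbxl22: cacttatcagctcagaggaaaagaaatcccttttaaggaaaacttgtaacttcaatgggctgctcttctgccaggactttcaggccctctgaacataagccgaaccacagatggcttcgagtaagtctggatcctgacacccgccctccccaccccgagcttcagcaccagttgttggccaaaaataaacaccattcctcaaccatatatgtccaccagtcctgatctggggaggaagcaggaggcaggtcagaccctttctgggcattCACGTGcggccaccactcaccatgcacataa
Fbxo10: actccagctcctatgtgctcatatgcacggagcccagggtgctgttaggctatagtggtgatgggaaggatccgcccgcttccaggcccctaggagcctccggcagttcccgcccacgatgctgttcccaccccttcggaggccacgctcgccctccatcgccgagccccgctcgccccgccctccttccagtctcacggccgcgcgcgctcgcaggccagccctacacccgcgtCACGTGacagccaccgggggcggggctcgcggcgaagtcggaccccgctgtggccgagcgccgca
Fbxo7: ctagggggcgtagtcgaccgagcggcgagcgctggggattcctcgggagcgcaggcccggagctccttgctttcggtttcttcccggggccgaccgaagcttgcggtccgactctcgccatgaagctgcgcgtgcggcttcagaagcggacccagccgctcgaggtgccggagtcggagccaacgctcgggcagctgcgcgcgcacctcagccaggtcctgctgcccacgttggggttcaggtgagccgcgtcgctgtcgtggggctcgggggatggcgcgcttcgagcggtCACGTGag

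The E-box begins 20 bases after the start in Fbxl22, 15 bases before it in Fbxo10 and 43 bases after the listed start used for Fbxo7. Promoters were listed for 37 of the 49 genes, 52 in all, and CACGTG, which is its own reverse complement, was found for 4 genes, Fbxl2 being the other one. It was held by 5 of these 52 promoters and by 7.15% of all 32851 promoters listed. GTAAACA, a form of the site of FoxO factors, read on both strands as GTAAACA and TGTTTAC, was in 0 of the 52 and in 3.65% of all promoters. Other forms were not searched for, such as ATAAACA, which the Fbxl22 promoter shown holds. AGAACA, a partial site of the glucocorticoid receptor, read as AGAACA and TGTTCT, was found for 6 of the 37 genes (Fbxl16, Fbxo5, Fbxo9, Fbxo33, Fbxo44 and Fbxw5). It was in 6 of the 52 promoters and in 19% of all promoters. None of the 3 motifs contains another, and a match describes the sequence only.

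Among F-box proteins that act on growth and cell cycle regulators, Fbxw7 and Fbxl7 were lower in KPC muscle. Fbxw7, which targets cyclin E, Myc, Jun and Notch, had 35.4, 35.4, 37.7 and 38.0 CPM in KPC+GnP, 28.1, 12.9, 18.1 and 18.8 CPM in KPC and 32.9, 40.9, 45.6 and 37.7 CPM in control muscle. The KPC libraries lay below both other groups, and KPC 1 was the highest of them. Fbxw7 fell by 1.01 in KPC against control (SE 0.19, edgeR adjusted p = 0.00129) and rose by 0.91 (SE 0.19, edgeR adjusted p = 0.00217) in KPC+GnP against KPC. In heart it had 82.5 ± 14.1 CPM in KPC+GnP, 69.1 ± 12.6 CPM in KPC and 96.3 ± 10.8 CPM in control libraries (SD, n = 4 each). The heart difference between KPC and control, -0.48 (SE 0.15, edgeR adjusted p = 0.0648), did not pass in edgeR but did in DESeq2 (adjusted p = 0.0319) and in edgeR without KPC heart 4, at -0.61 (adjusted p = 0.0125).

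Fbxl7, which targets the mitotic kinase Aurora A, had 1.23, 1.58, 1.25 and 1.53 CPM in KPC+GnP, 0.658, 1.13, 0.491 and 0.992 CPM in KPC and 1.58, 1.12, 2.08 and 1.96 CPM in control muscle. KPC and control libraries overlapped, KPC 2 lying just above the lowest control, while KPC+GnP lay above KPC. The log2 fold change was -1.04 (SE 0.30, edgeR adjusted p = 0.0125) for KPC against control and 0.77 (SE 0.30, edgeR adjusted p = 0.0490) for KPC+GnP against KPC, which was lost without any 1 of 10 of the 12 libraries, at adjusted p between 0.0571 and 0.134. In heart the means were 4.97 ± 0.351, 5.34 ± 0.956 and 5.53 ± 0.270 CPM in KPC+GnP, KPC and control libraries, and KPC differed from control by -0.052 (SE 0.16). The summed fibroblast markers were lowest in the KPC muscle libraries too, as given above. Fbxw11, the beta-TrCP paralogue that targets beta-catenin and the NF-kappaB inhibitor, moved the other way. It had 64.4, 73.4, 63.1 and 69.4 CPM in KPC+GnP, 74.0, 113, 86.0 and 102 CPM in KPC and 65.1, 70.6, 71.7 and 70.1 CPM in control muscle, with KPC above both other groups in every library. The log2 fold changes were 0.43 (SE 0.12, edgeR adjusted p = 0.0119) for KPC against control and -0.47 (SE 0.12, edgeR adjusted p = 0.00781) for KPC+GnP against KPC, and neither passed with library totals alone (adjusted p = 0.111 and 0.175). Fbxo5, which encodes the mitotic inhibitor Emi1, stayed under 1 CPM in muscle, at 0.570, 0.195, 0.246 and 0.331 CPM in KPC and 0.407, 0.194, 0.271 and 0.376 CPM in control libraries, and was not called (log2 fold change 0.085 (SE 0.42)).

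Fbxl4 and Fbxo7 encode F-box proteins that act on mitochondria. Fbxl4 (chr4:22357543-22434091, plus strand) sits in the mitochondrial membrane and restrains mitophagy by removing the receptors Bnip3 and Nix, and Fbxo7 (chr10:86021972-86051873, plus strand) works with Parkin and binds the proteasome regulator PI31. Fbxl4 had 21.4, 31.7, 22.2 and 24.6 CPM in KPC+GnP, 38.6, 50.3, 55.0 and 50.03 CPM in KPC and 31.8, 29.4, 25.1 and 25.6 CPM in control muscle. KPC libraries lay above all others, and KPC 1 was the lowest of the 4. The rise in KPC over control was 1.73-fold (log2 fold change 0.79 with SE 0.15, edgeR adjusted p = 0.00132), and KPC+GnP was lower than KPC by 0.96 on the log2 scale (edgeR adjusted p = 0.000591). In heart Fbxl4 kept to 14.1 ± 1.03 CPM in KPC+GnP, 13.7 ± 1.35 CPM in KPC and 12.6 ± 0.586 CPM in control libraries, with no call.

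Fbxo7 had 7.82, 7.26, 6.88 and 7.47 CPM in KPC+GnP, 10.1, 13.4, 13.7 and 12.4 CPM in KPC and 7.83, 7.23, 5.69 and 7.60 CPM in control muscle. The KPC libraries again lay above both other groups. The rise over control was 1.75-fold (log2 fold change 0.81 with SE 0.14, edgeR adjusted p = 0.000867), and KPC+GnP against KPC gave -0.75 (SE 0.14, edgeR adjusted p = 0.00113). In heart the means were 15.8 ± 2.74 CPM in KPC+GnP, 16.2 ± 1.61 CPM in KPC and 13.6 ± 0.972 CPM in control libraries, and KPC against control, 0.25 (SE 0.14, edgeR adjusted p = 0.229), did not pass.

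Fbxo6 and Fbxo44 are neighbours on chromosome 4, 659 bases apart on the minus strand (chr4:148145716-148152140 and chr4:148152800-148160482), and belong to the same subfamily. Fbxo6 binds sugar chains of misfolded glycoproteins that are returned from the endoplasmic reticulum for breakdown. Fbxo6 had 23.4, 20.8, 20.02 and 21.4 CPM in KPC+GnP, 31.4, 56.4, 41.6 and 54.3 CPM in KPC and 26.2, 26.2, 21.3 and 23.1 CPM in control muscle. No KPC library overlapped either group, and KPC 1 was again the nearest. This was the largest rise in KPC over control among the 46 genes, 1.90-fold (log2 fold change 0.93 with SE 0.16, edgeR adjusted p = 0.000986), and the largest fall in KPC+GnP against KPC (log2 fold change -1.10 with SE 0.16, edgeR adjusted p = 0.000489). Fbxo44 had 4.96, 3.80, 4.69 and 4.68 CPM in KPC+GnP, 6.76, 10.9, 6.88 and 5.49 CPM in KPC and 4.88, 4.90, 4.79 and 4.89 CPM in control muscle. KPC lay above both groups, with KPC 2 the highest. The changes were 0.62 (SE 0.19, edgeR adjusted p = 0.0171) in KPC against control and -0.73 (SE 0.19, edgeR adjusted p = 0.00815) in KPC+GnP against KPC, and with library totals alone neither passed (adjusted p = 0.0671 and 0.0565). In heart neither gene was called in any comparison, the KPC against control values being 0.16 (SE 0.12) for Fbxo6 and 0.015 (SE 0.15) for Fbxo44.

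Fbxw8 (chr5:118064965-118155464, minus strand) pairs with the cullin Cul7 and targets the insulin receptor substrate Irs1. It had 25.3, 25.5, 24.8 and 29.2 CPM in KPC+GnP, 31.8, 54.2, 46.8 and 54.0 CPM in KPC and 28.8, 27.3, 27.1 and 26.5 CPM in control muscle. KPC lay above the others in every library. The rise over control was 1.70-fold (log2 fold change 0.77 with SE 0.15, edgeR adjusted p = 0.00144), and KPC+GnP was lower than KPC (log2 fold change -0.83 with SE 0.15, edgeR adjusted p = 0.000977). Exons of the antisense gene Gm9754, not in the count tables, cover 33.4% of the exon bases of Fbxw8. In heart Fbxw8 stood at 68.0 ± 3.32 CPM in KPC+GnP, 58.8 ± 5.09 CPM in KPC and 60.6 ± 3.43 CPM in control libraries.

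**Figure D3:**
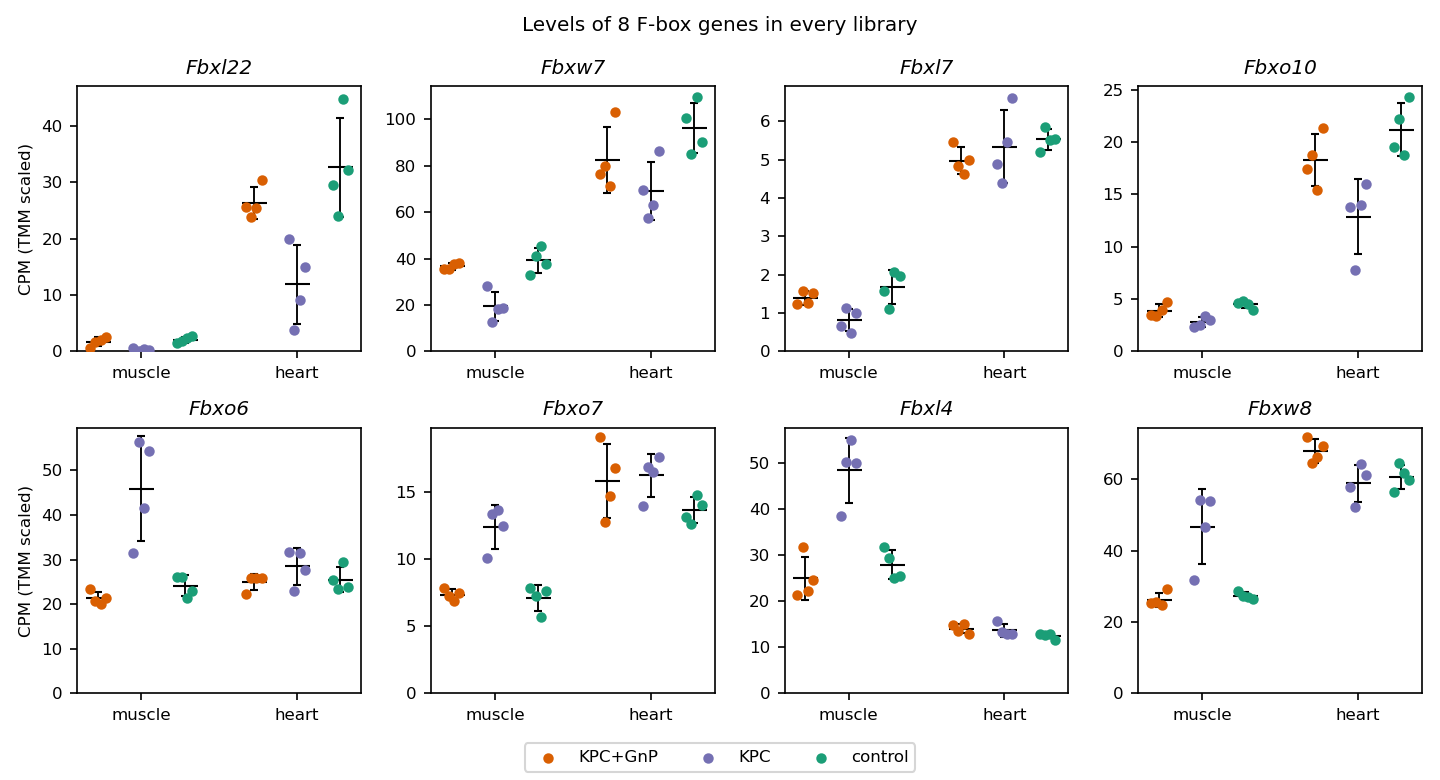
CPM of 8 F-box genes in every library of KPC+GnP (orange), KPC (purple) and control (green), in muscle on the left and heart on the right of each panel, with mean and SD of 4 libraries. KPC muscle lies below the other groups for Fbxw7 and Fbxo10 and above them for Fbxo6, Fbxo7, Fbxl4 and Fbxw8, and Fbxl22 is far higher in heart than in muscle.

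Fbxl21 is an F-box protein of the circadian clock, and Fbxl5 senses iron and removes the iron regulatory protein Irp2. Fbxl21 was barely detected, with at most 0.226 CPM in a muscle library and 1.51 CPM in a heart library. Fbxl5 had 43.8 ± 3.51 CPM in KPC+GnP, 40.5 ± 3.55 CPM in KPC and 39.2 ± 5.29 CPM in control muscle and was not called there (KPC against control 0.048 (SE 0.11), of the other sign with library totals alone). In heart Fbxl5 had 60.1, 65.6, 50.6 and 48.7 CPM in KPC+GnP, 54.7, 108, 65.7 and 53.9 CPM in KPC and 51.5, 50.4, 44.9 and 51.3 CPM in control libraries. KPC hearts lay above all control hearts, KPC 2 being the highest. KPC against control heart, 0.51 (SE 0.20, edgeR adjusted p = 0.113), did not pass, and among the fits with 1 library left out it passed only without KPC heart 4, at 0.62 (adjusted p = 0.0420).

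Fbxo38, which targets PD-1, an inhibitory receptor on T cells, had 28.9, 30.8, 31.6 and 29.1 CPM in KPC+GnP, 30.9, 61.2, 52.8 and 51.1 CPM in KPC and 31.3, 31.1, 27.3 and 28.7 CPM in control muscle. KPC 1 fell among the controls and the other KPC libraries lay above all of them, and the change was 0.73 (SE 0.16, edgeR adjusted p = 0.00347). Fbxw4, Fbxw2, Fbxo42 and Fbxo22 rose by 0.28 to 0.42 in KPC over control, and of these Fbxw4, Fbxw2 and Fbxo42 were lower in KPC+GnP than in KPC, by 0.43 to 0.65. Fbxw4, known from limb development, had 15.6 ± 2.09 CPM in KPC+GnP, 24.5 ± 1.29 CPM in KPC and 18.3 ± 1.38 CPM in control muscle. With library totals alone, Fbxw2, Fbxw4, Fbxo42 and Fbxo22 were no longer called in KPC against control, at adjusted p of 0.106 for Fbxw2 and 0.0533 for Fbxw4. The Fbxo22 call also ended without any 1 of 10 of the 12 libraries, at adjusted p between 0.0512 and 0.105. On the other strand, exons of Gm17018 cover 21.4% of the exon bases of Fbxw4 and those of Nrg4 15.4% of Fbxo22.

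Fbxo9, which targets the kinase partners Tel2 and Tti1, rose by 0.27 (SE 0.10, edgeR adjusted p = 0.0369) in KPC muscle, a call that ended without any 1 of 5 libraries (KPC 2, 3 and 4, control 1 and 3) at adjusted p between 0.0516 and 0.106, and with library totals alone at 0.11 (adjusted p = 0.375). In KPC+GnP against KPC it was lower by 0.31, a call that ended without KPC 4 or KPC+GnP 3 (adjusted p = 0.0533 and 0.0645). Fbxo45, which works with the ligase Mycbp2 in neurons, fell by 0.57 to 23.4 ± 6.92 CPM in KPC muscle, against 34.8 ± 2.82 CPM in controls, and was higher in KPC+GnP than in KPC by 0.48, a call lost without any 1 of 8 libraries. Fbxo34 fell by 0.37, a call lost without any 1 of 7. Fbxo18, a DNA helicase with an F-box, changed by -0.25 (SE 0.092, edgeR adjusted p = 0.0388), a call lost without any 1 of 8 of the 12 libraries at adjusted p between 0.0505 and 0.129. Against KPC muscle, KPC+GnP was lower for Fbxl6 (-0.50) and Fbxo28 (-0.27) and higher for Fbxo3 (0.30), Fbxo18 (0.31) and Fbxo33 (0.54). Calls for Fbxl6, Fbxo28 and Fbxo3 each ended without any 1 of 8 or 9 of the 12 libraries, at adjusted p between 0.0522 and 0.147. The Fbxo33 call ended without any 1 of KPC 2, KPC+GnP 2, KPC+GnP 3 or KPC+GnP 4, at adjusted p between 0.0572 and 0.0799. The Fbxo18 call ended without KPC 3 (adjusted p = 0.0535).

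In muscle 22 of the 46 genes tested were called in no comparison. Among them were Fbxl17, which checks the pairing of BTB domain proteins and had 149 ± 4.81 CPM in KPC+GnP, 127 ± 29.2 CPM in KPC and 149.6 ± 13.6 CPM in control muscle, and Fbxo11, which targets Bcl6 and had 59.1 ± 4.90, 54.5 ± 3.33 and 54.5 ± 2.53 CPM in the same groups. Fbxo25, the closest relative of Fbxo32, also was not called. It had 9.20, 8.92, 8.50 and 8.23 CPM in KPC+GnP, 8.91, 3.31, 6.76 and 5.70 CPM in KPC and 6.56, 9.42, 10.6 and 8.28 CPM in control muscle. KPC 1 lay among the controls, and 2 of the other KPC libraries lay below all of them. The change against control, -0.50 (SE 0.24, edgeR adjusted p = 0.101), passed without KPC 1, at -0.74 (adjusted p = 0.0101). For comparison, the genes left out by the rule went as follows in KPC against control muscle: Fbxo32, Fbxo31, Fbxo21 and Fbxo30 rose by 3.22, 1.71, 0.83 and 0.65, and Fbxo40 fell by 0.38.

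In heart few F-box genes changed. KPC against control heart called 2 of 48 genes, Fbxl22 and Fbxo10, both lower, which is 4.17% of them against 9.34% of all 13846 genes tested (4.95% higher and 4.38% lower). For 7 of the 48 the groups did not overlap, 4 higher and 3 lower, against 14.4% of all genes (5.97% higher and 8.43% lower). The count depended on the tool and on single libraries. DESeq2 called 9, library totals alone 6, limma 1 and the fit of these 2 groups alone 0. Over all genes DESeq2 called 1416 higher and 1075 lower of 14537, and library totals alone 1368 and 330 of 13846. Limma called 492 and 543 of 13846, and the 2 groups alone 136 and 93 of 13355. Without KPC heart 4 there were 11 F-box genes (3 higher, 8 lower), beside 1911 higher and 1643 lower of all 14013 genes. Without KPC heart 3, KPC+GnP heart 1, 2 or 4, or any control heart there were 0. Fewer of all genes were called there too than with all libraries. Of 8 macrophage and 6 neutrophil markers, 5 each were higher in KPC than in control heart, with summed neutrophil levels of 22.2 to 286 CPM in KPC and 5.22 to 15.5 CPM in control hearts. Of 8 cardiomyocyte markers, 1 was lower and 0 were higher. Their sums were 35100 to 74423 CPM in KPC and 58451 to 78746 CPM in control hearts, which overlap. The part of these cells in the heart results was not tested.

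Other genes came near the threshold in KPC against control heart. Fbxo33, which targets the RNA-binding protein YB-1, had 14.8, 14.6, 20.5 and 11.3 CPM in KPC+GnP, 18.4, 33.3, 16.1 and 9.89 CPM in KPC and 9.15, 10.6, 9.65 and 9.40 CPM in control hearts. KPC 2 was the highest, and KPC 4 lay within the control range. The change was 1.01 (SE 0.30, edgeR adjusted p = 0.0550), and 1.22 (adjusted p = 0.00687) without KPC 4. Fbxw11 gave -0.25 (SE 0.081, edgeR adjusted p = 0.0652), with KPC hearts at 55.5, 51.8, 47.6 and 53.7 CPM below control hearts at 61.6, 62.3, 59.5 and 65.3 CPM without overlap. Fbxo9 had 57.3, 48.7, 48.4 and 47.8 CPM in KPC+GnP, 44.7, 38.0, 44.8 and 51.4 CPM in KPC and 36.9, 37.1, 32.6 and 35.2 CPM in control hearts. Both tumour groups lay above the controls. KPC against control, 0.33 (SE 0.11, edgeR adjusted p = 0.0642), did not pass.

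Between KPC+GnP and KPC heart edgeR called 0 of 48 genes, against 1.55% of all genes. The unadjusted p was under 0.05 for 6 of the 48 and for 2886 of all 13846 genes. Without KPC heart 4 edgeR called 0 as well, beside 576 higher and 616 lower of all 14013 genes. DESeq2 called 3, beside 636 higher and 527 lower of all 14537 genes. These 3 were Fbxo16, Fbxl16 and Fbxl22. Fbxo16 had 1.45, 0.914, 0.624 and 1.43 CPM in KPC+GnP, 0.356, 0.214, 0.476 and 0.200 CPM in KPC and 0.146, 0.418, 0.580 and 0.559 CPM in control hearts. All KPC+GnP hearts lay above the rest (log2 fold change 1.81 with SE 0.47, edgeR adjusted p = 0.0655), and the edgeR call appeared only without KPC+GnP heart 3 among the 12 fits with a library left out (adjusted p = 0.0485). Fbxl16 gave 1.12 (SE 0.36, edgeR adjusted p = 0.115) and Fbxl22 1.14 (SE 0.38, edgeR adjusted p = 0.128). Between KPC+GnP and control heart, 1 of 48 genes was called, 2.08% against 1.23% of all genes: Fbxo9, at 0.51 (SE 0.11, edgeR adjusted p = 0.0417), or 1.43-fold. That call ended without any 1 of 9 of the 12 libraries, at adjusted p between 0.0545 and 0.151, and in limma (adjusted p = 0.0519). Without KPC heart 4 the count was still 1, beside 358 higher and 215 lower of all 14013 genes. DESeq2 called Fbxo9 and Fbxw9, beside 640 higher and 416 lower of all 14537 genes. Fbxl20 averaged 40.7 ± 1.83 CPM in KPC+GnP and 53.6 ± 4.55 CPM in control heart and was not called, at -0.40 (SE 0.17, edgeR adjusted p = 0.230). Of 5 adipocyte markers 3 were higher in KPC+GnP than in control heart, with sums of 5.27 to 928 CPM in KPC+GnP and 0 to 4.87 CPM in control hearts, and their part in this result was not tested.

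Whether muscle and heart differed in their response was tested in a fit of all 24 libraries. For KPC against control, 6 of 49 genes (12.2%, against 25.8% of all 14509 genes) differed between tissues, 4 of them higher in muscle and 2 lower, beside 12.4% and 13.4% of all genes. Fbxw8, Fbxo6, Fbxw11 and Fbxl4 had the higher log2 fold change in muscle, by 0.73 (SE 0.17, edgeR adjusted p = 0.00432), 0.69 (SE 0.21, edgeR adjusted p = 0.0192), 0.61 (SE 0.14, edgeR adjusted p = 0.00433) and 0.59 (SE 0.18, edgeR adjusted p = 0.0196). Fbxo33 and Fbxl7 had the lower one in muscle, with differences of -1.45 (SE 0.37, edgeR adjusted p = 0.00772) and -1.06 (SE 0.32, edgeR adjusted p = 0.0201). Fbxl22 was not called different (-1.14 (SE 0.63, edgeR adjusted p = 0.185)), which does not show that its fall was of equal size in both. Without KPC muscle 1 the count was 16, beside 2635 higher and 3169 lower of all 14532 genes. Without KPC heart 4 it was 12, beside 2080 higher and 2374 lower of 14533. DESeq2 called 10, beside 2362 higher and 2126 lower of 14537. The Fbxl7 call ended without control muscle 3 (adjusted p = 0.0503). With library totals alone the split was 1 higher and 8 lower, beside 755 and 3436 of all 14509 genes. Fbxo6, Fbxw11 and Fbxl4 were no longer called with that scaling.

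For KPC+GnP against KPC, 10 of 49 genes (20.4%, against 25.7% of all genes) differed between tissues, 1 of them higher in muscle and 9 lower, beside 12.5% and 13.2% of all genes. The log2 fold change was lower in muscle for Fbxw8, with a difference of -0.998 (SE 0.17, edgeR adjusted p = 0.000821), for Fbxl4 at -0.96 (SE 0.18, edgeR adjusted p = 0.00144), for Fbxo44 at -0.89 (SE 0.25, edgeR adjusted p = 0.0131) and for Fbxo6 at -0.87 (SE 0.21, edgeR adjusted p = 0.00554). Fbxo7, Fbxo38, Fbxw11, Fbxo42 and Fbxo9 were also lower, by 0.44 to 0.68, and Fbxl7 was higher by 0.91 (SE 0.32, edgeR adjusted p = 0.0422). Without KPC muscle 1 the count was 14, beside 2967 higher and 2727 lower of all 14532 genes. Without KPC heart 4 it was 12, beside 2043 higher and 2043 lower of 14533. With library totals alone the split was 5 higher and 4 lower, beside 2997 and 961 of all 14509 genes. Fbxo7, Fbxo38, Fbxw11, Fbxo42 and Fbxo9 were no longer called with that scaling. Calls for Fbxl7, Fbxo42, Fbxo9 and Fbxo38 ended without any 1 of 14, 9, 6 and 1 of the 24 libraries. With the animal as a replicate block, which compares tissues within the 8 animals that gave both, 0 of 49 F-box genes passed in either comparison. These animals were 146, 176 and 181 of the controls, 141, 144 and 148 of KPC, and 162 and 163 of KPC+GnP. Animal 141 gave KPC muscle 1. Each group thus has fewer animals than libraries in that fit, and the lost calls do not show that the tissues responded alike. Over all genes the block left 1 call for KPC against control and 25 for KPC+GnP against KPC, and for Fbxw8 the blocked values were 0.58 (adjusted p = 0.182) and -0.95 (adjusted p = 0.120).

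**Figure D4:**
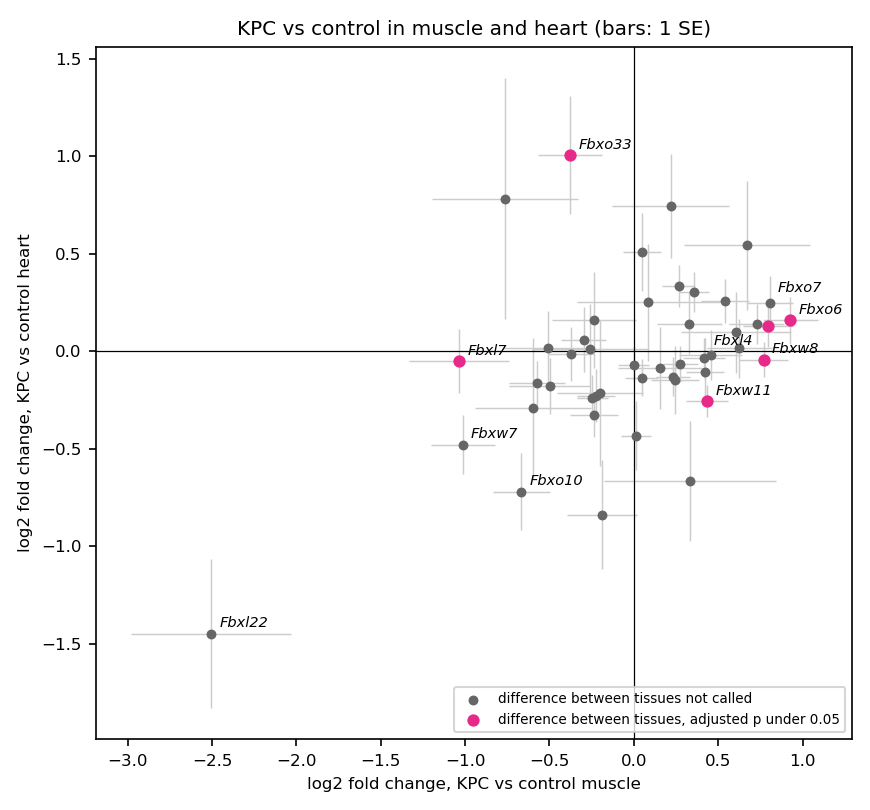
Log2 fold change of KPC against control in muscle (horizontal axis) and heart (vertical axis) for the F-box genes tested in both tissues, with 1 SE. Fbxl22, Fbxo10 and Fbxw7 lie below 0 on both axes, and the 6 pink points are the genes whose response differed between tissues in the fit without the animal block.

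Control muscle and control heart differed in 32 of 49 F-box genes (65.3%, against 59.5% of all genes), 19 higher in muscle and 13 lower, beside 29.2% and 30.3% of all genes. With library totals alone the split was 7 higher and 23 lower, beside 1782 and 8299 of all 14509 genes. The median of all genes was then -0.70 in place of -0.064. With the animal block 29 F-box genes were called, beside 3613 higher and 3635 lower of all 14509 genes. On the scale common to all 24 libraries, Fbxo17, of the glycoprotein-binding subfamily, had 6.54 ± 0.817 CPM in muscle and 1.09 ± 0.333 CPM in heart (log2 fold change 2.58 with SE 0.33, edgeR adjusted p = 6.47e-07). Fbxl17 was higher in muscle by 1.95 and Fbxl4 by 1.93. Fbxl22 had 2.75 ± 0.677 CPM in muscle and 25.2 ± 6.81 CPM in heart (log2 fold change -3.19 with SE 0.42, edgeR adjusted p = 1.04e-06). Fbxl18 was higher in muscle by 1.01 and Fbxo4 lower by 0.93, the Fbxl18 call being lost with library totals alone. Fbxo5 and Fbxo10 were lower in muscle by 2.06 and 1.47. Fbxo16 had 0 counts in the 4 control muscle libraries and 0.426 ± 0.200 CPM in control heart. These genes kept their sign with library totals alone, while Fbxl5 (0.43), Fbxo11, Fbxo28, Fbxo34, Fbxo38, Fbxo42 and Fbxw5, called higher in muscle with TMM, took the other sign.

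Other parts of the ligase were measured too. The counts of the 4 partner lists stand beside 49.7% of all genes called in KPC against control muscle (27.5% higher, 22.1% lower) and 49.8% in KPC+GnP against KPC (23.1% higher, 26.7% lower), and no list is read as set apart from these shares. Of 9 SCF core genes measured, 4 rose and 1 fell in KPC against control muscle, and 0 rose and 4 fell in KPC+GnP against KPC. Cul1, the scaffold, had 114 ± 4.58 CPM in KPC+GnP, 236 ± 75.7 CPM in KPC and 104 ± 6.57 CPM in control muscle (SD, n = 4 each), a log2 change of 1.18 (SE 0.20, edgeR adjusted p = 0.000809) in KPC against control. Skp1a, the adaptor that holds the F-box, rose by 0.53 (SE 0.10, edgeR adjusted p = 0.00152), and Sugt1, a Skp1-binding chaperone partner, by 0.50 (SE 0.11, edgeR adjusted p = 0.00244). The SCF core medians were -0.047 for KPC against control and -0.10 for KPC+GnP against KPC, beside -0.0026 and 0.023 over all genes. In the same order the medians were 0.19 and -0.23 for the COP9 list and -0.061 and -0.024 for the Nedd8 list. For F-box genes under other symbols they were -0.20 and 0.15.

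The COP9 signalosome removes Nedd8 from cullins and so lets F-box proteins exchange. Of its 9 genes measured, 4 rose and 0 fell in KPC against control muscle, and 0 rose and 5 fell in KPC+GnP against KPC. Cops5, its catalytic subunit, rose by 0.65 (SE 0.12, edgeR adjusted p = 0.00115), Cops2 by 0.91 (SE 0.17, edgeR adjusted p = 0.00152) and Cops4 by 0.50 (SE 0.088, edgeR adjusted p = 0.00103). Of 13 genes of the Nedd8 pathway, which switches cullins on, 1 rose and 4 fell in KPC muscle. Nae1, of the Nedd8 activating enzyme, rose by 0.52 (SE 0.11, edgeR adjusted p = 0.00270), whereas its partner Uba3 fell by 0.24 (edgeR adjusted p = 0.0319) and Cand2, a muscle-enriched cullin exchange factor, by 0.35 (edgeR adjusted p = 0.0310). In KPC+GnP against KPC, 5 of the 13 rose and 1 fell. In heart 0 genes of the SCF core and COP9 lists and 1 of the Nedd8 list, Dcun1d2, were called in KPC against control.

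F-box genes that carry other symbols, and so fall outside the 49, included a fall as large as that of Fbxl22, at very low counts. Of 7 measured, 1 rose and 3 fell in KPC muscle. Ccnf, cyclin F, had 0.427 ± 0.107 CPM in KPC+GnP, 0.0845 ± 0.0639 CPM in KPC and 0.643 ± 0.205 CPM in control muscle (log2 fold change -2.87 with SE 0.49, edgeR adjusted p = 0.000856). Kdm2b, a histone demethylase, fell by 1.19 (edgeR adjusted p = 0.0198), and Lrrc29 rose by 1.82 (SE 0.33, edgeR adjusted p = 0.00110).

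**Figure D5:**
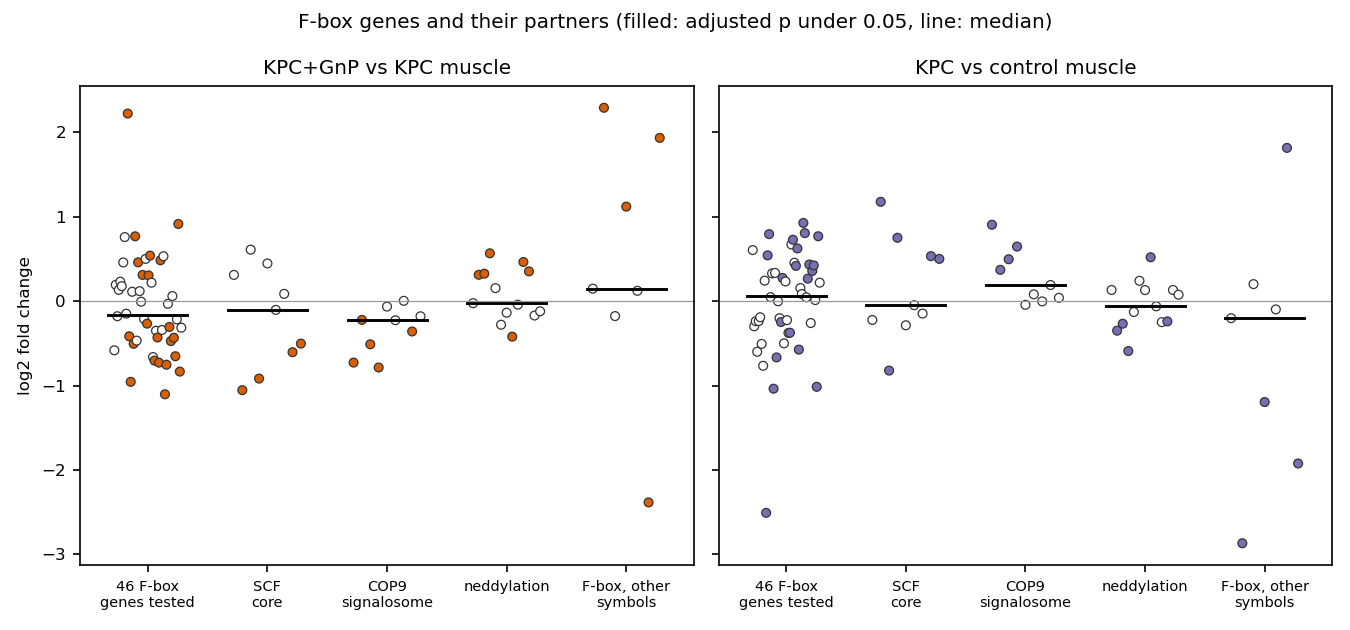
Log2 fold changes in muscle of the 46 tested F-box genes and of 4 lists of partners, for KPC+GnP vs KPC (left) and KPC vs control (right), filled where edgeR adjusted p is under 0.05, with the median of each list as a line. The median lines lie between -0.20 and 0.19 in the right panel and between -0.23 and 0.15 in the left. The called genes of the SCF core and COP9 lists lie mainly above 0 in the right panel and below 0 in the left, in comparisons that share the KPC libraries.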

How the data were processed

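Polyadenylated RNA of skeletal muscle and heart was sequenced as paired ends on a NovaSeq instrument, from miRNeasy extracts and KAPA mRNA Hyperprep libraries, per the labels' protocols. Per the submitters' processing notes, the tools were STAR 2.5, Subread 1.5.1 with featureCounts, FastQC 0.11.5 and edgeR 3.12.1, and the build was mm10. Their roles, the annotation and the use of strand are not stated there. The authors deposited raw counts per gene and log2 FPKM for each tissue, 14537 genes each. The deposited log2 FPKM tracked log2 counts to within a spread of 0.00181, once a constant per gene and library was removed, where every library had 200 counts or more.

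Groups were taken from the labels and the number in each title was read as the animal. The cell line is named in the labels of the controls too, although the design describes them as sham operated. The muscle count column of KPC 1 ends in a digit that its sample's title lacks, and was assigned to it because no other column carries that number. The labels do not say more on how replicates were raised, so p-values measure the spread between these animals. Counts of every pair of libraries in a group differed by more than sampling noise (chi-square per gene at least 14.8).

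Counts were fitted per tissue in edgeR 4.0.16 (R 4.3.3) with all 3 groups, TMM scaling, filterByExpr (minimum count 10, minimum total 15), the quasi-likelihood F test and p-values adjusted after Benjamini and Hochberg across every gene tested, called at 0.05. SE is the log2 fold change divided by the root of F. Differences between tissues came from 1 fit of 24 libraries. Animals shared between tissues pair the libraries, and the fit with the animal as a replicate block is given beside those results. Alternatives were DESeq2 1.42.0, its size factors in edgeR, library totals, no filter, limma 3.58.1 on the deposited log2 FPKM, the 2 groups alone and each library left out. The fit was also run on simulated data in which large changes were planted in a small part of the genes. Most changes described here are smaller, so that run does not cover them. Locations come from GENCODE vM21 of GRCm38, where Fbxo18 has no entry under that symbol, and promoters from RefSeq.

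The members, lists and rules were chosen with earlier results of these data known. Genes were named as follows: per comparison, up to 10 called members per direction whose groups do not overlap, where the higher group averages 2 CPM or more. Added were the 5 smallest p where under 5 passed, members with known roles, and 3 per partner list. A member stays in all counts and is not reported here by name. Fbxl2, Fbxl6, Fbxo11, Fbxo28, Fbxo34 and Fbxw10 fall outside this rule and were named to account for calls and filters, after their values were seen.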

Additional observations from a re-analysis of the deposited data

Results flagged for a closer look

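Responses that differed between muscle and heart are given as the log2 fold change in muscle minus that in heart, each past an edgeR adjusted p of 0.05 in the fit of 24 libraries. For KPC against control the differences were 0.59 for Fbxl4, -1.06 for Fbxl7, -1.45 for Fbxo33, 0.69 for Fbxo6, 0.61 for Fbxw11 and 0.73 for Fbxw8. For KPC+GnP against KPC they were -0.96 for Fbxl4, 0.91 for Fbxl7, -0.62 for Fbxo38, -0.45 for Fbxo42, -0.89 for Fbxo44, -0.87 for Fbxo6, -0.68 for Fbxo7, -0.44 for Fbxo9, -0.57 for Fbxw11 and -0.998 for Fbxw8. Both comparisons share the KPC libraries, and with the animal as a block 0 of these 16 differences passed. With library totals alone, Fbxl4, Fbxo6 and Fbxw11 did not pass for KPC against control. For KPC+GnP against KPC, Fbxo7, Fbxo9, Fbxo38, Fbxo42 and Fbxw11 did not pass with that scaling.

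Single libraries lay far from the other 3 of their group in 16 of the 204 sets examined (34 named genes in 6 groups), where chance gives about 1 in 20. In KPC+GnP muscle these were Fbxl15 in library 1 (1.58 CPM, highest), Fbxo16 in library 4 (0.0450 CPM, highest) and Fbxw8 in library 4 (29.2 CPM, highest). In KPC muscle these were Fbxl16 in library 1 (3.47 CPM, highest), Fbxl21 in library 1 (0.175 CPM, highest), Fbxo22 in library 1 (20.4 CPM, lowest) and Fbxo42 in library 1 (19.6 CPM, lowest). In control muscle it was Fbxo3 in library 3 (121 CPM, lowest). In KPC+GnP heart these were Fbxl18 in library 2 (1.57 CPM, lowest), Fbxo25 in library 4 (15.99 CPM, highest), Fbxo6 in library 1 (22.4 CPM, lowest) and Fbxo9 in library 1 (57.3 CPM, highest). In KPC heart it was Fbxl21 in library 1 (1.51 CPM, highest). In control heart these were Fbxl5 in library 3 (44.9 CPM, lowest), Fbxo44 in library 2 (11.6 CPM, lowest) and Fbxw9 in library 3 (1.74 CPM, lowest). For Fbxo16 in KPC+GnP muscle and Fbxl21 in KPC muscle the other 3 libraries had 0 counts and the library named had 1 and 4 counts, so these 2 of the 16 follow from the zeros alone and say nothing about the library, and the 16 cannot be held against the share chance gives. The KPC muscle entries are all of library 1, the library nearest to the controls for 15 of the 20 genes called, and their cause was not tested.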

How the results depend on the processing

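The counts of F-box genes called in KPC against control muscle and between control tissues stayed within 1.5 times their value under every alternative tried. In KPC+GnP against KPC muscle, 22 became 14 when only these 2 groups were fitted. KPC against control heart went with the tool, at 9 with DESeq2, 6 with library totals alone, 1 with limma and 0 with only the 2 groups. KPC+GnP against KPC heart gave 3 with DESeq2. KPC+GnP against control heart gave 2 with DESeq2, 0 with limma and 2 with only the 2 groups. The difference between tissues for KPC against control gave 10 with DESeq2. With the animal as a replicate block, which pairs the tissues of 8 animals, that count was 0, and it was 0 for KPC+GnP against KPC. Between control tissues the block left 29 of 32. Calls over all genes moved the same way in these fits, and the causes were not tested. Leaving out 1 library at a time gave 16 to 27 calls for KPC against control muscle, 13 to 25 for KPC+GnP against KPC muscle, 0 to 0 for KPC+GnP against control muscle, 0 to 11 for KPC against control heart, 0 to 1 for KPC+GnP against KPC heart and 0 to 1 for KPC+GnP against control heart. Between tissues it gave 5 to 16 for KPC against control, 7 to 14 for KPC+GnP against KPC and 29 to 34 for controls. Calls over all genes varied in these fits too, so the ranges are not particular to F-box genes. For KPC against control heart they were 71 higher and 33 lower of 14024 genes without control heart 3. Without KPC heart 4 they were 1911 and 1643 of 14013. For KPC against control muscle they were 3018 and 2119 of 12910 without KPC 4, and 4069 and 3924 of 12917 without KPC 1.

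Among the genes named by rule, signs that turned belonged to genes with no call, apart from the comparison of control tissues with library totals alone. There the called genes listed in the results took the other sign, with Fbxl5 at -0.21. Values are log2 fold changes. With library totals alone, KPC against control muscle gave -0.12 for Fbxl5 and -0.090 for Fbxo5, and KPC+GnP against control muscle gave 0.045 for Fbxo9, 0.046 for Fbxw11 and 0.017 for Fbxw8. The same scaling gave 0.10 for Fbxw8 in KPC against control heart, and 0.11 for Fbxo25 and 0.045 for Fbxw11 in KPC+GnP against control heart. With limma, Fbxl5 gave -0.012 and Fbxo5 -0.0093 in KPC against control muscle, and Fbxo5 -0.0061 in KPC+GnP against control heart. Fbxo25 in KPC+GnP against control muscle gave -0.011 with DESeq2, -0.010 with its size factors, -0.0076 with limma and -0.00093 with no filter. With the replicate block, the difference between tissues was 0.035 for Fbxo5 in KPC against control and -0.25 for Fbxl22 in KPC+GnP against KPC.

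With 1 library left out, uncalled values spanned 0 as follows. In KPC against control muscle, Fbxl5 lay between -0.016 and 0.12 and Fbxo5 between -0.30 and 0.28. In KPC+GnP against control muscle, Fbxo25 lay between -0.12 and 0.11, Fbxo7 between -0.039 and 0.090 and Fbxo9 between -0.094 and 0.0058. In heart, Fbxw8 lay between -0.087 and 0.035 in KPC against control. For KPC+GnP against KPC heart, Fbxl21 lay between -0.34 and 0.59, Fbxo25 between -0.0051 and 0.19 and Fbxo7 between -0.14 and 0.056. For KPC+GnP against control heart, Fbxo5 lay between -0.061 and 0.27. Between control tissues, Fbxo25 lay between -0.099 and 0.11. In muscle Fbxl21, Fbxo16, Fbxo5 and Fbxl22 rest on few counts per library.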
